A study of Mus musculus with 2 samples.

Results

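A set of 10 genes that build or regulate the neuronal microtubule were followed through single Sox1-GFP+ cells of the mouse tail and brain. They are the beta-tubulins Tubb3, Tubb2a and Tubb2b, the alpha-tubulin Tuba1a, the stathmins Stmn1, Stmn2, Stmn3 and Stmn4, doublecortin (Dcx) and Map1b. The list was set by gene name, with earlier results of these data known. All 10 were found in both libraries, among 16301 genes seen in at least 3 cells that passed the filters. Microtubules are hollow polymers of alpha- and beta-tubulin dimers that give the growing neurite its shape and its transport tracks. Newborn neurons make large amounts of tubulin, including isotypes such as Tubb3 (the antigen of the Tuj1 antibody) that most other cells hardly make. Stathmins bind free tubulin dimers and favour disassembly, whereas Dcx and Map1b bind and stabilise the polymer in migrating neurons and growing axons.

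Cells were sorted by flow cytometry for GFP from trypsinised tissue of Sox1-GFP mice, in which GFP is knocked in at Sox1, a gene of early neural progenitors. One library came from postnatal tail and 1 from adult brain, and each tissue was represented by 1 biological replicate with no further treatment or genotype. Tissue, age and library therefore differed together and cannot be told apart, no test between cells was made, and all intervals given are 95% intervals that cover counting error only. The sort depends on GFP, which can outlast the transcription of Sox1.

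Kinds of cells were set by marker molecules. In the brain these were 1482 cells with Dlx1, a transcription factor of interneuron progenitors and neuroblasts, 76 other cells with Top2a, which is made in dividing cells, and 5465 remaining cells with Slc1a3, the glial glutamate transporter GLAST. In the tail they were 93 cells with Pkd2l1, the channel of cerebrospinal fluid-contacting neurons, 64 with Robo3, the receptor of commissural axons, 174 other cells with Top2a and 1234 remaining cells with Igfbp5. No tail cell held both Pkd2l1 and Robo3. Another 965 brain and 399 tail cells held none of these markers.

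The files held 12111 brain and 2469 tail cell barcodes, of which 7988 and 1964 passed the filters and 29 were shared between the libraries. The median depth was 696 molecules per brain cell and 1282.5 per tail cell. Other markers followed the kinds. Of 8 further Dlx1-cell genes all 8 were found in the brain Dlx1 cells, and of 8 Pkd2l1-cell genes all 8 in the Pkd2l1 cells. Of 9 Robo3-cell genes 6 were found in the Robo3 cells, with Barhl2, Lhx2 and Lhx9 at 0. The numbers found did not separate the kinds, since Slc1a3 cells also held all 8 Dlx1-cell genes and Igfbp5 cells 7 Pkd2l1-cell genes. Levels were given as CPM (the genes' molecules out of all molecules of the kind, in ppm). The Dlx1-cell genes summed to 4321 CPM in Dlx1 and 68.4 in Slc1a3 cells. The Pkd2l1-cell genes summed to 2797 CPM in Pkd2l1 and 78.9 in Igfbp5 cells, the Robo3-cell genes to 3771 in Robo3 and 14.1 in Igfbp5 cells. Igfbp5 is not specific to glia, since 384 of the 1482 brain Dlx1 cells and 30 of the 93 Pkd2l1 cells held it. The 7 brain glia genes summed to 484 CPM in tail Igfbp5 and 25106 CPM in brain Slc1a3 cells. The 6 tail glia genes summed to 4986 CPM in Igfbp5 cells, 918 in Pkd2l1 cells, 269 in Robo3 cells and 3804 in tail fibroblasts. The tail Top2a and Igfbp5 cells were mixed. The 5 fibroblast genes summed to 15931 CPM in the former and 7563 CPM in the latter. They summed to 43.1 to 50.3 CPM in both neuronal kinds of the tail and 7.90 to 194 CPM in the brain kinds. The 5 keratinocyte genes summed to 2352 and 362 CPM in the tail Top2a and Igfbp5 cells. Values without the cells holding at least 3 molecules of Col3a1 or of Krt5 and Krt14 are given where they bear on a result.

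The 10 genes together made up 2.01% of all molecules in brain Dlx1 cells, 1.99% in tail Pkd2l1 cells and 1.31% in tail Robo3 cells. In the remaining kinds the share was 0.927% in brain Top2a cells, 0.259% in tail Top2a cells, 0.218% in tail Igfbp5 cells and 0.1602% in brain Slc1a3 cells. Tail fibroblasts (0.173%), keratinocytes (0.121%) and brain microglia (0.106%), each taken as cells with at least 3 molecules of their markers, give the level in cells that are not neural. The brain Dlx1 cells made up 19.7% of the brain library's molecules and held 64.6% to 77.0% of those of every member except Tubb2a (22.1%) and Tubb2b (50.4%).

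**Figure D1:**
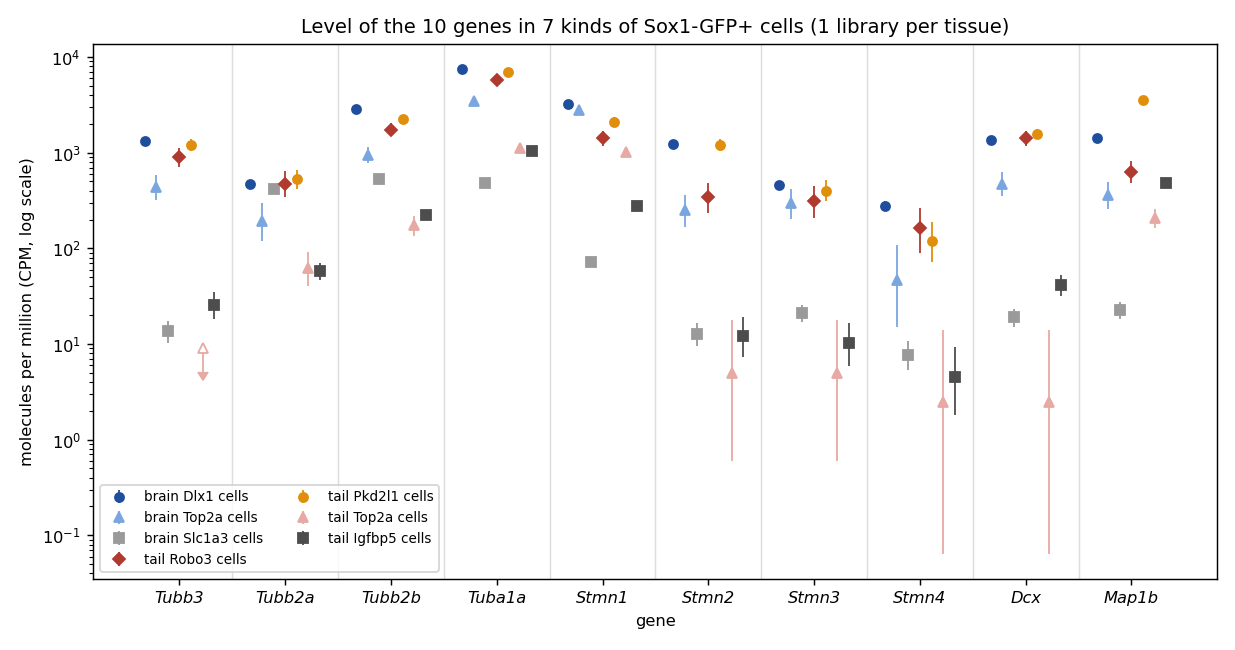
CPM (log scale) of each gene in 7 kinds of cells, with 95% exact binomial intervals; the open triangle with an arrow is the upper limit for Tubb3, which had 0 molecules in tail Top2a cells. In CPM, circles and diamonds (brain Dlx1, tail Pkd2l1 and tail Robo3 cells) lie above the squares (brain Slc1a3 and tail Igfbp5 cells) for every gene, within the same library, from 1.13-fold for Tubb2a in the brain to 99.0-fold for Stmn2 in the tail. Tubb2a in Dlx1 cells and Map1b in Robo3 cells cross to the other side under scaling by trimmed mean of M-values (TMM).

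Tubb3, the isotype most restricted to neurons, stood at 1328 CPM in brain Dlx1 cells, 1201 in tail Pkd2l1 cells and 894 in tail Robo3 cells. In brain Top2a cells it was at 436 CPM, in tail Igfbp5 cells at 25.7 and in brain Slc1a3 cells at 13.6, and 0 molecules were found among the 401852 of the tail Top2a cells. The order from brain Dlx1 to tail Pkd2l1 cells was within counting error (ratio of Pkd2l1 to Dlx1 cells 0.904, 0.775 to 1.05), whereas Robo3 cells lay below Dlx1 cells at 0.674 (0.534 to 0.840). Tuba1a, the main alpha-tubulin of developing neurons, was the most abundant member in all 7 kinds but brain Slc1a3 cells, at 7478, 6915 and 5754 CPM in the Dlx1, Pkd2l1 and Robo3 cells. It was at 3482 and 1125 CPM in the brain and tail Top2a cells, 1044 in tail Igfbp5 cells and 487 in brain Slc1a3 cells. Tubb2b, mutated like Tuba1a in malformations of the cortex, followed the same course at 2865, 2225 and 1735 CPM in the neuronal kinds against 532 in brain Slc1a3 and 224 in tail Igfbp5 cells. It was the most abundant member in brain Slc1a3 cells. Tubb2a departed from it. It was near one level in the neurons (469 CPM in Dlx1, 528 in Pkd2l1 and 474 in Robo3 cells) and almost as high in brain Slc1a3 cells at 415 CPM, but it was at 57.7 CPM in tail Igfbp5 cells.

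Among the stathmins, Stmn1, which dividing cells also make, was at 3246 CPM in brain Dlx1 and 2767 CPM in brain Top2a cells, and at 2112, 1412 and 1008 CPM in tail Pkd2l1, Robo3 and Top2a cells. It was at 280 CPM in tail Igfbp5 and 71.8 CPM in brain Slc1a3 cells. Stmn2 (SCG10), which is anchored to Golgi and growth cone membranes, was at 1228 CPM in Dlx1 cells and 1207 in Pkd2l1 cells but at 345 in Robo3 cells. It was at 251 CPM in brain Top2a cells and at or below 12.6 CPM in the other 3 kinds. Stmn3 was at 459, 402 and 312 CPM and Stmn4 at 281, 119 and 162 CPM in the Dlx1, Pkd2l1 and Robo3 cells. Dcx, whose loss disturbs neuronal migration, was nearly level across the 3 neuronal kinds, at 1357, 1578 and 1412 CPM. It was at 474 CPM in brain Top2a cells, 41.1 in tail Igfbp5, 19.0 in brain Slc1a3 and 2.49 (1 molecule) in tail Top2a cells. Map1b, the early axonal microtubule-associated protein, spread most among the neuronal kinds, at 3589 CPM in Pkd2l1 cells, 1417 in Dlx1 cells and 636 in Robo3 cells. It was at 484 CPM in tail Igfbp5, 362 in brain Top2a, 207 in tail Top2a and 22.6 in brain Slc1a3 cells. Tubb2a and Tubb2b, and Tuba1a with Tuba1b and Tuba1c, are near-identical copies, and reads could have been split between them, so that their separate values are less certain than their sums.

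The genes lie apart in the genome but for Tubb2a (chr13:34074274-34078007) and Tubb2b (chr13:34126748-34130466), neighbours on the minus strand of chromosome 13 in GENCODE on GRCm38. Map1b lies on the same chromosome at chr13:99421446-99516540 and Dcx on the X chromosome. RefSeq promoter windows on GRCm38.p6 (250 bases before to 50 after the start) were matched for 6 of the 10 genes, Dcx with 2 windows and Map1b, Stmn3, Tuba1a, Tubb2a and Tubb3 with 1 each, but not for Tubb2b, Stmn1, Stmn2 and Stmn4. Since the members were high in the same cells, the windows were searched on both strands for 2 E-box words, the binding letters of proneural bHLH factors. CAGATG was found in 2 of the 7 windows, those of Map1b and Stmn3, and in 17.2% of all 32817 promoters, and CAGCTG in 0 of 7 against 16.3%. Map1b and Stmn3 are shown because they hold the word (capitals), and Tubb3, on chromosome 8 plus strand, because the other genes are ranked against it below and it holds neither.
Tubb3 promoter (chr8:123411303-123411602, plus strand): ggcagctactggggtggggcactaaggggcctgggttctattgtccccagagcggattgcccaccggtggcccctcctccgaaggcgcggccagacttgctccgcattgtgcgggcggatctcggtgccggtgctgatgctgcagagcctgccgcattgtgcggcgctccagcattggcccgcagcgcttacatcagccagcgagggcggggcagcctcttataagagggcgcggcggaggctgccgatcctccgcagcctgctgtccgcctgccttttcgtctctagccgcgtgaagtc
Map1b promoter (chr13:99516553-99516852, minus strand): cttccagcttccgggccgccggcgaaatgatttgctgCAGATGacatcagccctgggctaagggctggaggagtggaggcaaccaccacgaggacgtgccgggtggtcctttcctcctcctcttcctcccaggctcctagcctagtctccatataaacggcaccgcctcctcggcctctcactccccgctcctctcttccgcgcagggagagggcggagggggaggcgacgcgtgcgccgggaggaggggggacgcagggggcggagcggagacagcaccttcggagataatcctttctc
Stmn3 promoter (chr2:181314451-181314750, minus strand): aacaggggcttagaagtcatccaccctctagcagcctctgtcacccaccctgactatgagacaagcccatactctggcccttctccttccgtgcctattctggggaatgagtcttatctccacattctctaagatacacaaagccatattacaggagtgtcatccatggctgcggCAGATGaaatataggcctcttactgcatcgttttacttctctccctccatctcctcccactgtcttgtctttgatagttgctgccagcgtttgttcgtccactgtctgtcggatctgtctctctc

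In the brain, the Dlx1 cells were set against the Slc1a3 cells, which sets cells of the interneuron lineage against cells with a glial marker. Tubb3 was 98.0-fold higher in Dlx1 cells (75.7 to 129), Stmn2 97.1-fold (74.4 to 129), Dcx 71.5-fold (57.4 to 90.1) and Map1b 62.7-fold (51.3 to 77.5). Stmn1 was 45.2-fold higher (40.3 to 50.8), Stmn4 36.5-fold, Stmn3 21.9-fold, Tuba1a 15.4-fold and Tubb2b 5.39-fold (5.11 to 5.68). Tubb2a stood apart at 1.13-fold (1.03 to 1.24). Counting a gene as apart where at least 50 molecules were seen and the whole interval lay beyond 4-fold, 9 of 10 members were higher in Dlx1 cells and 0 lower. Of all 9376 genes with that minimum, 8.47% were higher by this rule and 8.53% lower. The median log2 ratio was 5.34 over the members and 0.39 over all genes. Under trimmed mean of M-values (TMM) scaling, which moved all log2 ratios of this comparison by -0.66, Tubb2a turned to 0.715 and Tubb2b no longer passed the 4-fold rule. The Dlx1 cells held 1496 CPM of 7 brain glia genes, against 25106 CPM in the Slc1a3 cells, and 158 of them held a Slc1a3 molecule; among cells without a marker of another kind the ratios were 122 for Tubb3 and 1.41 for Tubb2a, and the count remained 9.

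In the tail, the Pkd2l1 cells were set against the Igfbp5 cells. Stmn2 was 99.0-fold higher (61.7 to 168), Tubb3 46.8-fold (33.1 to 67.6), Stmn3 39.2-fold (22.4 to 72.6) and Dcx 38.4-fold (29.1 to 51.4). Tubb2b (9.94-fold), Tubb2a (9.15-fold), Stmn1 (7.55-fold), Map1b (7.42-fold) and Tuba1a (6.63-fold) were also higher by the 4-fold rule. These are all 9 members with the minimum of molecules, whereas Stmn4 (26.6-fold, 10.7 to 74.9) rested on 19 and 7 molecules. Of all genes, 2.11% were higher and 2.73% lower by this rule, and the median log2 ratio was 3.31 over the members and 0.02 over all genes. Of the Pkd2l1 cells, 30 held an Igfbp5 molecule, and in the other 63 the members made up 2.12% of the molecules.

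The Robo3 cells against the same Igfbp5 cells gave 7 of the 8 members with enough molecules as higher, against 1.79% of all genes (1.28% lower), with median log2 ratios of 3.00 and 0.03. Tubb3 was 34.9-fold higher (23.6 to 52.2), Dcx 34.4-fold (25.3 to 47.1) and Stmn2 28.3-fold (15.6 to 52.8), followed by Tubb2a (8.21-fold), Tubb2b (7.75-fold), Tuba1a (5.51-fold) and Stmn1 (5.05-fold). Stmn3 and Stmn4 were 30.5-fold and 36.0-fold higher on 45 and 22 molecules in all. Map1b was the exception at 1.31-fold (0.991 to 1.71), and at 0.982 under TMM scaling, under which Tuba1a and Stmn1 no longer passed. The Pkd2l1 and Robo3 comparisons share the Igfbp5 cells, so they are not independent of each other.

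**Figure D2:**
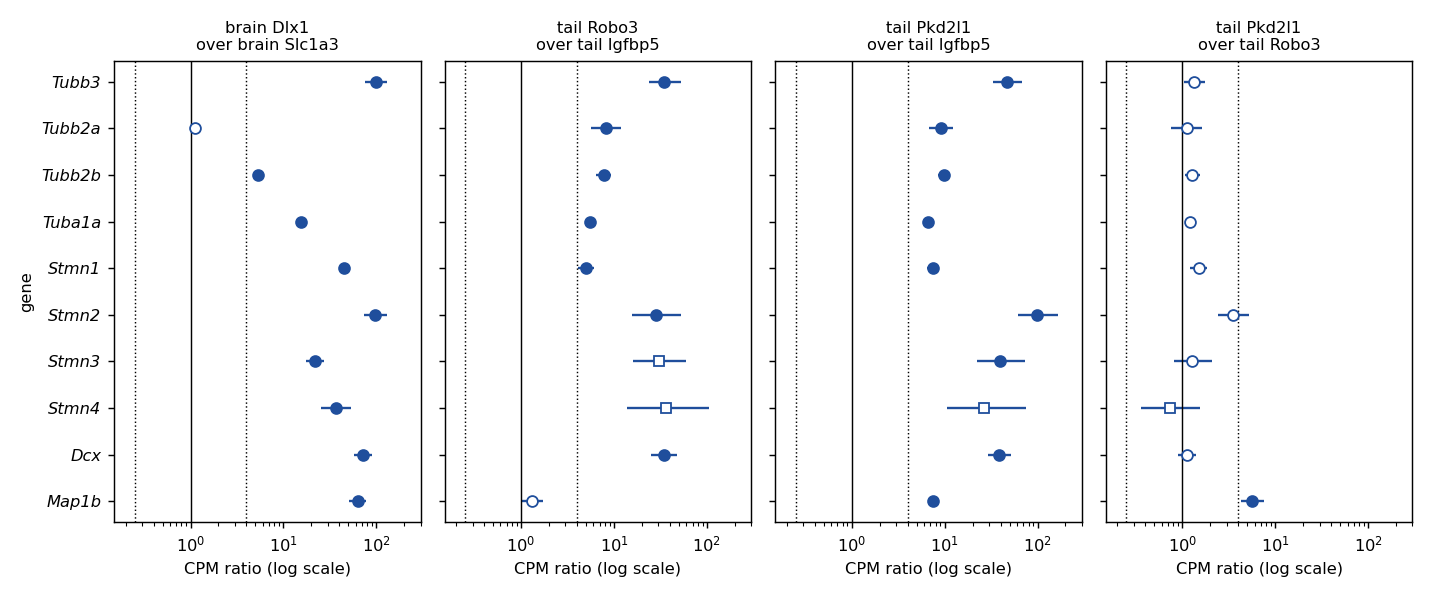
CPM ratios (log scale) of the 10 genes with 95% intervals in 4 comparisons between kinds of cells. Filled circles passed the 4-fold rule (dotted lines), open circles did not, and open squares had under 50 molecules. Tubb2a sits near 1 in the brain, Map1b near 1 in Robo3 cells, and Map1b is the filled circle of the last panel, 5.65-fold higher in Pkd2l1 than in Robo3 cells.

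Set directly against each other, the 2 neuronal kinds of the tail differed in 1 of the 9 members with enough molecules. Map1b was 5.65-fold higher in Pkd2l1 cells (4.31 to 7.51), with 571 molecules in 93 cells against 59 in 64. Of 929 genes, 2.91% were higher in Pkd2l1 cells by the same rule and 2.91% lower. As a mean of per-cell CPM the Map1b ratio was 5.05 and it did not pass the rule, nor did it when each cell was thinned to 400 molecules (5.64). Stmn2 was 3.50-fold higher (2.40 to 5.26), and Stmn1 (1.496), Tubb3 (1.34), Tubb2b (1.28) and Tuba1a (1.202) were above 1 with their intervals. For Dcx (1.12, 0.901 to 1.39), Tubb2a (1.11), Stmn3 (1.29) and Stmn4 (0.739) the intervals included 1. Map1b was found in 94.6% of Pkd2l1 and 48.4% of Robo3 cells, and after thinning in 71.0% (60.6 to 79.9) and 21.9% (12.5 to 34.0). In the cells that held it the median was 5 and 1 molecules. Gap43, a growth cone protein, showed the same split more sharply, at 3866 CPM in Pkd2l1 and 21.6 CPM (2 molecules) in Robo3 cells.

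Against the brain Dlx1 cells, none of the members of either tail neuron differed by the 4-fold rule (0 of 10 each). For Robo3 cells the background was 0.94% of genes higher and 0.919% lower, and for Pkd2l1 cells 1.1% and 1.68%. Robo3 cells lay below Dlx1 cells for 8 members whose intervals excluded 1, from Stmn2 (0.281, 0.191 to 0.398) and Stmn1 (0.435) to Tuba1a (0.769), while Dcx (1.04) and Tubb2a (1.01) did not separate. Pkd2l1 cells lay above for Map1b (2.53, 2.30 to 2.79) and Dcx (1.16, 1.01 to 1.33) and below for Stmn4 (0.426), Stmn1 (0.651), Tubb2b (0.777) and Tuba1a (0.925). The share of all genes whose intervals excluded 1 was not computed for either comparison. The median log2 ratio of Robo3 cells was -0.65 over the members and -0.05 over all genes. For Pkd2l1 cells these medians were -0.13 and -0.06. The Dlx1 kind held dividing cells, with 7 cycling genes at 1580 CPM against 6.29 CPM in Pkd2l1 and 43.1 CPM in Robo3 cells. Under 3 alternatives (thinned cells, the mean of per-cell CPM, and cells with no marker of another kind) the Dcx ratio of Pkd2l1 cells turned to 0.799, 0.915 and 0.945. Against the 1285 Dlx1 cells without Top2a, the Dcx ratio of Pkd2l1 cells was 0.991 (0.863 to 1.13) and that of Map1b 2.18 (1.98 to 2.41).

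Within the Dlx1 cells, 9 of the 10 members had ratios below 1 in cells that held Top2a. The share of all genes below 1 was not computed, so this count has no background. The 197 cells that also held Top2a were compared with the 1285 that did not, a division chosen after the data had been seen. The members made up 1.31% of molecules in the former and 2.25% in the latter. Stmn4 was lowest in the dividing cells relative to the rest (0.187, 0.114 to 0.291), followed by Tubb2a (0.280), Stmn2 (0.371), Tubb2b (0.379), Dcx (0.411), Tubb3 (0.442), Map1b (0.452), Tuba1a (0.585) and Stmn3 (0.619). Stmn1 alone was higher, 1.24-fold (1.16 to 1.32). Of the alpha- and beta-tubulins outside the list, Tuba1c (12.3-fold on 29 and 7 molecules), Tubb4b (8.11-fold), Tuba1b (4.57-fold) and Tubb5 (1.72-fold) were higher in Dlx1 cells with Top2a. Tubb4a was lower at 0.297 (0.214 to 0.404), and Tuba4a (0 and 4 molecules) and Tubb6 (1 and 0) were too rare to read. The cells with Top2a were deeper, with a median of 1511 against 653 molecules, and the part of depth was not tested.

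Dividing cells without a neuronal marker differed between the libraries. In the brain, 7 of the 9 members with enough molecules were higher in Top2a than in Slc1a3 cells by the 4-fold rule and 0 lower, against 3.94% and 1.73% of genes, with median log2 ratios of 4.003 and 0.35. Stmn1 was 38.5-fold higher (32.8 to 45.3), Tubb3 32.2-fold (21.5 to 48.0), Dcx 24.96-fold (17.3 to 35.8), Stmn2 19.8-fold, Map1b 16.0-fold, Stmn3 14.2-fold and Tuba1a 7.15-fold. Tubb2b was 1.80-fold higher and Tubb2a was lower at 0.470 (0.290 to 0.720). These 76 cells held 1634 CPM of the 8 Dlx1-cell genes, against 68.4 CPM in Slc1a3 cells, and 197 of all 273 brain cells with Top2a held Dlx1.

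In the tail, 0 of the 6 members with enough molecules differed by the 4-fold rule between Top2a and Igfbp5 cells, against 1.1% of genes higher and 0.137% lower. Stmn1 was 3.60-fold higher (3.14 to 4.13), and the other intervals reached 1 or lay below it. Tubb3 had 0 molecules in Top2a cells and 40 in Igfbp5 cells, which makes it at least 3.44-fold lower taking 3 molecules for 0 (upper limit of the ratio's interval 0.375), Dcx had 1 and 64 (0.0606, 0.00151 to 0.350), and Map1b was at 0.427 (0.336 to 0.536). The Top2a cells held more skin markers, as given above. Without cells carrying them, Stmn1 was 3.40-fold higher (2.88 to 4.003), Tuba1a 1.31-fold higher (1.17 to 1.48), Tubb3 at least 2.33-fold lower (upper limit 0.554), Dcx at 0.0896 (0.00223 to 0.517) and Map1b at 0.484 (0.367 to 0.630). Stmn1 was also found in 77.5% of the 80 keratinocytes, at 1040 CPM.

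**Figure D3:**
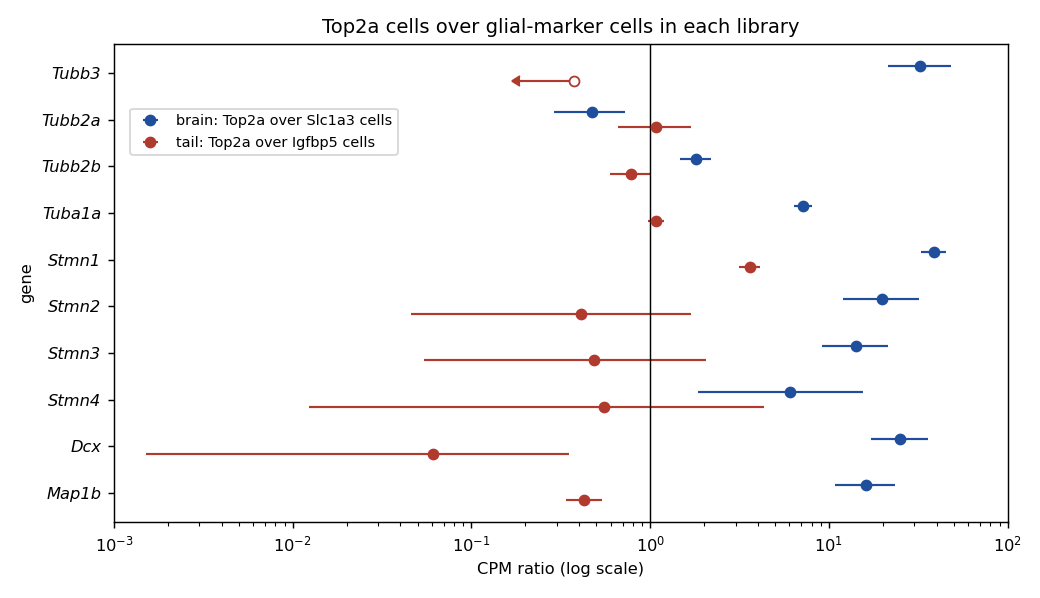
CPM ratio (log scale) of cells with Top2a over cells with a glial marker, in the brain (Slc1a3, blue) and the tail (Igfbp5, red), with 95% intervals; the open circle with an arrow is the upper limit for Tubb3 in the tail, 0.375. Every brain ratio except Tubb2a lies above 1, whereas in the tail the interval of Stmn1 (3.60) alone lies above 1, and Tubb3, Dcx and Map1b lie below it. Without skin-marker cells the tail interval of Tuba1a (1.17 to 1.48) also lies above 1.

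The glial-marker cells of the tail and brain, chosen by different markers, differed in 2 members by the 4-fold rule. Map1b was 21.4-fold higher in tail Igfbp5 cells (17.4 to 26.7) and Tubb2a was lower at 0.139 (0.111 to 0.172), against 7.95% of genes higher and 5.81% lower. Under TMM scaling the Map1b ratio was 14.5 and that of Tubb2a 0.0941. Stmn1 was 3.89-fold higher (3.36 to 4.51), Dcx (2.16), Tuba1a (2.14) and Tubb3 (1.89) lay above 1, and Stmn3 (0.489) and Tubb2b (0.421) below it. Because the markers differ, the 683 tail cells with Slc1a3 and without neuronal or cycling markers were also compared with the brain Slc1a3 cells, an alternative added after the data were seen. Map1b was then 20.9-fold higher (16.7 to 26.2), Tubb2a at 0.154 (0.116 to 0.201), Stmn1 at 3.26 and Tuba1a at 2.12, while Tubb3 (0.166, 0.0196 to 0.626) and Dcx (0.296, 0.0938 to 0.719) turned below 1. Tail fibroblasts held Map1b at 218 CPM and Tubb2a at 100.2 CPM, and without skin-marker cells the Map1b ratio was 23.0 and that of Tubb2a 0.138.

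The share of each isotype within its own family does not depend on how the kinds were scaled. Tubb3 supplied 19.2% of beta-tubulin molecules in brain Dlx1 cells (18.38 to 20.04), 19.96% in tail Pkd2l1 cells (17.5 to 22.6) and 18.3% in Robo3 cells (14.8 to 22.2), so that the 3 neuronal kinds could not be separated. It supplied 11.6% in brain Top2a, 2.78% in tail Igfbp5, 1.07% in brain Slc1a3 and 0 of 919 molecules in tail Top2a cells. Taking 3 molecules for 0, the last allows up to 0.326%, which is not an exact upper limit. Tubb2b gave 41.4% in Dlx1 and 42.0% in brain Slc1a3 cells, whereas Tubb2a gave 6.78% and 32.8% (31.6 to 34.1). Outside the list, Tubb5 gave 37.3% and the broadly used Tubb4b 45.6% of beta-tubulin in tail Top2a cells, and in cells with Tmem212, a gene of multiciliated cells, Tubb4b gave 87.3% in the tail (83.3 to 90.6) and 87.7% in the brain (82.7 to 91.7). Within Dlx1 cells, Tubb5 gave 46.7% with Top2a and 19.0% without, and Tubb2b 24.5% and 45.4%.

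Tuba1a supplied 95.9% of alpha-tubulin molecules in Robo3 cells, 95.8% in Pkd2l1 cells and 91.5% in Dlx1 cells. Its share was 77.6% in brain Slc1a3, 70.2% in brain Top2a, 69.4% in tail Igfbp5 and 40.7% in tail Top2a cells. In the last kind Tuba1b gave 55.8% (52.8 to 58.8). Tuba4a was found almost only in brain Slc1a3 cells, at 9.29% (8.24 to 10.4) against 0.0426% in tail Igfbp5 and 0.0387% in brain Dlx1 cells. Of stathmin molecules, Stmn1 made up 98.8% in tail Top2a, 91.2% in tail Igfbp5 and 82.3% in brain Top2a cells, and 62.3%, 63.3% and 55.0% in the Dlx1, Robo3 and Pkd2l1 cells. Stmn2 made up 31.4% in Pkd2l1 cells (27.8 to 35.3) and 15.5% in Robo3 cells (10.8 to 21.1).

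**Figure D4:**
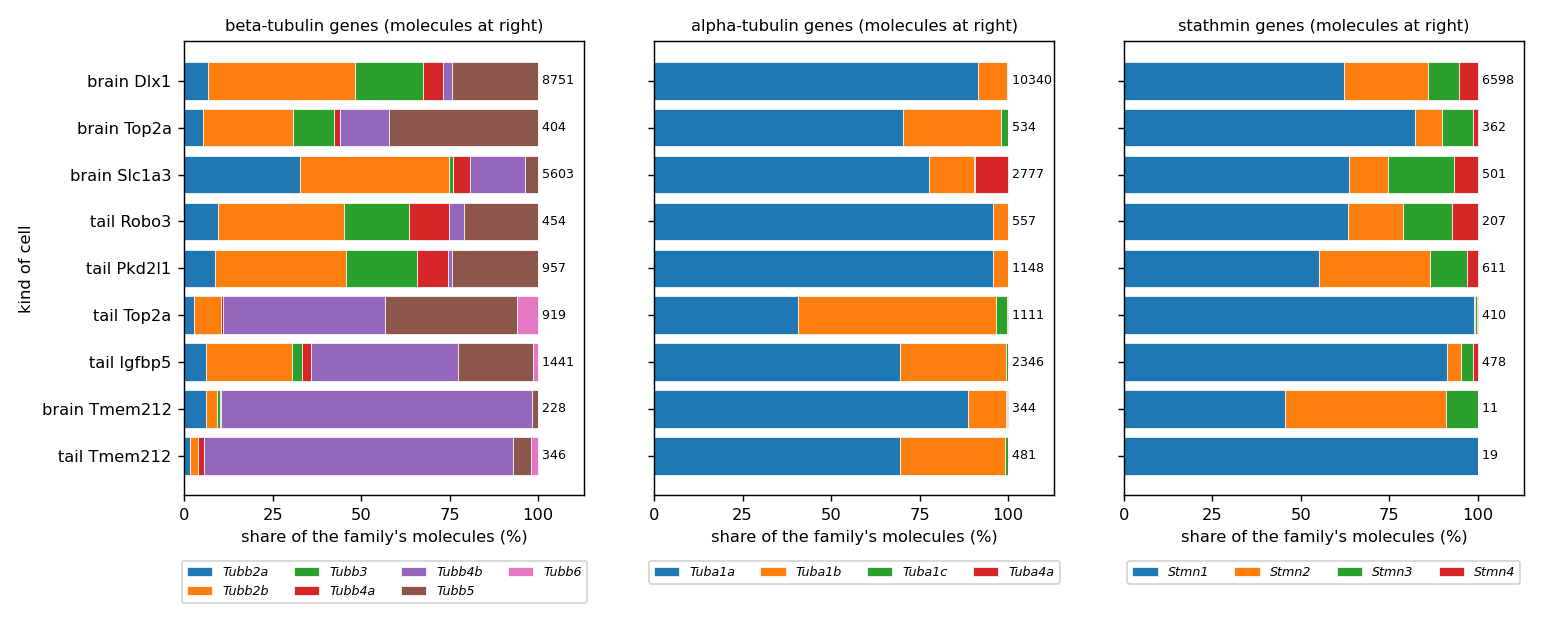
Share (%) of each gene in the summed molecules of the beta-tubulin, alpha-tubulin and stathmin families in 9 kinds of cells, with the number of molecules at the right of each bar; genes with at most 1% in every kind are not drawn. Tubb3 is a visible part of beta-tubulin in the neuronal kinds (18.3% to 19.96%) and absent from the bar of tail Top2a cells, and Tubb4b fills 87.3% and 87.7% of the bars of Tmem212 cells.

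Single cells varied widely within a kind. The 10 genes made up a median of 2.43% of a cell's molecules in Dlx1 cells without Top2a (10th to 90th percentile 1.23% to 3.48%) and 1.43% in those with it (0.514% to 2.45%). The medians were 1.78% in Pkd2l1 cells (0.870% to 2.71%) and 1.40% in Robo3 cells (0.724% to 1.75%). In tail Igfbp5 and brain Slc1a3 cells they were 0.175% and 0.106%, and 18.4% and 43.4% of those cells held none of the 10, against 0 of 93 Pkd2l1, 0 of 64 Robo3 and 8 of 1482 Dlx1 cells. The 90th percentile of the glial-marker kinds (0.442% and 0.343%) lay below the 10th percentile of each neuronal kind. Brain Top2a cells ranged from 0.241% to 2.28% around a median of 0.739%.

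**Figure D5:**
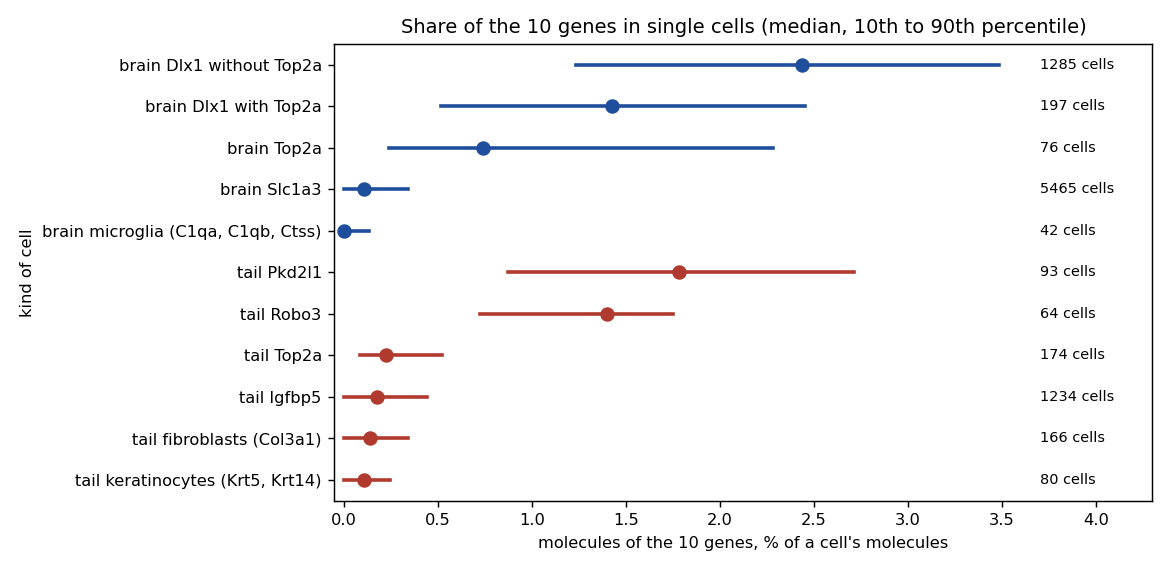
Molecules of the 10 genes as a percent of each cell's molecules, by kind of cell; points are medians and lines run from the 10th to the 90th percentile (brain blue, tail red), with the number of cells at the right. The lines of Pkd2l1, Robo3 and Dlx1 cells without Top2a start at 0.724% to 1.23%, that of Dlx1 cells with Top2a at 0.514%, and those of glial, skin and microglial cells end at or below 0.442%.

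To compare detection at equal depth, each cell was thinned to 400 molecules, which left out 125 Dlx1, 4 brain Top2a, 400 brain Slc1a3 and 12 tail Igfbp5 cells. Tubb3 was then found in 42.7% of Dlx1 cells (40.1 to 45.4), 36.6% of Pkd2l1 cells (26.8 to 47.2) and 23.4% of Robo3 cells (13.8 to 35.7), against 62.4%, 71.0% and 57.8% without thinning. It was found in 1.23% of tail Igfbp5 cells (0.689 to 2.02) and in 0 of 166 fibroblasts and 0 of 80 keratinocytes, which allow up to 1.81% and 3.75% (exact upper limits 2.20% and 4.51%), at median depths of 1182, 2013 and 2115 molecules. Its share in brain Slc1a3 cells was 0.395%, and 0 of 41 microglia allow up to 7.32% (exact upper limit 8.60%). Over all molecules, tail Igfbp5 cells held Tubb3 at 25.7 CPM (18.3 to 34.9), above the upper limit of 9.48 CPM in fibroblasts, whereas at equal depth the intervals of the shares of cells overlapped. In brain Slc1a3 cells the 13.6 CPM did not exceed the 70.4 CPM of microglia, which rests on 2 molecules (8.53 to 254). Dcx was found in 43.5% of Dlx1, 43.8% of Robo3 and 33.3% of Pkd2l1 cells, in 0.900% of tail Igfbp5 and 0.513% of brain Slc1a3 cells, and in 0 fibroblasts and keratinocytes. Tuba1a was found in 91.5% of Dlx1, 88.2% of Pkd2l1 and 89.1% of Robo3 cells, but also in 30.4% of tail Igfbp5 cells (27.8 to 33.0), 21.1% of fibroblasts (15.1 to 28.1) and 3.75% of keratinocytes. Map1b was found in 16.4% of tail Igfbp5 cells (14.3 to 18.6), 10.8% of fibroblasts (6.55 to 16.6) and 0.533% of brain Slc1a3 cells (0.352 to 0.775), and Tubb2a in 14.1% of brain Slc1a3 (13.1 to 15.0) and 2.13% of tail Igfbp5 cells (1.39 to 3.10).

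At this equal depth a median of 5 of the 10 genes was seen in a Dlx1 cell, 4 in a Pkd2l1 cell, 3 in a Robo3 cell, 2 in a brain Top2a cell, 1 in tail Top2a and Igfbp5 cells and 0 in a brain Slc1a3 cell. At least 5 were seen in 53.9% of Dlx1, 36.6% of Pkd2l1 and 14.1% of Robo3 cells, and in 4 of 1222 tail Igfbp5 and 10 of 5065 brain Slc1a3 cells. In Dlx1 cells Dcx was found in 48.1% of cells with Tubb3 and 40.0% of those without. In brain Slc1a3 cells it was found in 3 of the 20 cells with Tubb3 (15.0%) and in 0.456% of the others, and in tail Igfbp5 cells in 2 of 15 (13.3%) and 0.746%. Among the 399 tail cells with none of the markers, 101 held at least 5 members before thinning and were at 1845 CPM of Dcx and 779 CPM of Tubb3. All 10 postmitotic neuron genes, Gap43 included, were found in them, at 5470 CPM in sum. Detection did not set them apart, since tail Igfbp5 and brain Slc1a3 cells also held all 10, at 298 and 106 CPM in sum. The sum was 9140 CPM in Pkd2l1 and 5700 CPM in Robo3 cells. The 101 cells were chosen by the members, whose levels in them are therefore no result.

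Other genes of the microtubule were read from 5 lists of 106 genes, with "higher" and "lower" again by the 4-fold rule and counts out of the genes with enough molecules. Over all genes with enough molecules, 8.47% were higher and 8.53% lower in Dlx1 than in Slc1a3 cells. Against Igfbp5 cells these shares were 1.79% and 1.28% in Robo3, 2.11% and 2.73% in Pkd2l1, and 1.1% and 0.137% in tail Top2a cells. In brain Top2a over Slc1a3 cells they were 3.94% and 1.73%, and in tail Igfbp5 over brain Slc1a3 cells 7.95% and 5.81%. Of the 11 other tubulins, 3 of 6 were higher in Dlx1 than in Slc1a3 cells. These were Tubb5 (35.8-fold), Tuba1b (8.17-fold) and Tubb4a (6.29-fold), and Tuba4a was lower at 0.0542. In both tail neurons Tubb4a (22.5-fold in Robo3, 21.7-fold in Pkd2l1 cells) and Tubb5 (5.25-fold and 7.51-fold) were the 2 of 4 that were higher than in Igfbp5 cells. In tail Top2a cells Tuba1c (10.3-fold) and Tubb6 (9.28-fold) were higher than in Igfbp5 cells. Without skin-marker cells both fell under the minimum of molecules, at 7.64-fold (3.39 to 17.7) and 8.96-fold (4.598 to 17.96). In brain Top2a cells Tubb5 (33.6-fold) and Tuba1b (17.0-fold) were higher than in Slc1a3 cells. Between the glial-marker cells Tuba1b was 5.58-fold higher in the tail and Tuba4a lower at 0.0110, on 1 and 258 molecules.

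Of 34 microtubule-binding and growth cone genes, 7 of 31 were higher in Dlx1 than in Slc1a3 cells and 0 lower, led by Crmp1 (66.3-fold), Dpysl5 (50.3-fold) and Dpysl3 (36.9-fold), all of the collapsin response mediator family. In Pkd2l1 cells 7 of 27 were higher than in Igfbp5 cells, led by Gap43 (79.3-fold, 62.4 to 102), Mapt, which encodes tau (41.2-fold), and Crmp1 (24.2-fold). Without skin-marker cells the Gap43 ratio was 215 (144 to 335), and the fibroblasts held Gap43 at 640 CPM. In Robo3 cells 6 of 27 were higher, led by Mapt (22.8-fold), Crmp1 (21.5-fold) and Dpysl4 (16.6-fold). Gap43 was the single gene of 13 that separated Pkd2l1 from Robo3 cells (179-fold, 49.4 to 1485, on 615 and 2 molecules). Dpysl4 was 35.7-fold higher in Robo3 and 7.96-fold higher in Pkd2l1 cells than in Dlx1 cells, and Gap43 18.1-fold higher in Pkd2l1 cells than in Dlx1 cells. In brain Top2a cells Jpt1 (23.4-fold) and Dpysl3 (16.2-fold) were the 2 of 28 higher than in Slc1a3 cells, against 3.94% of all genes. In tail Top2a cells 0 of 26 were higher than in Igfbp5 cells, against 1.1% of all genes. Tppp3 (13.7-fold) and Dpysl4 (8.17-fold) were higher in tail Igfbp5 than in brain Slc1a3 cells.

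Among 20 motor genes, the neuronal kinesin heavy chain Kif5c was higher than in the glial-marker cells of the same library in Dlx1 (16.0-fold), Robo3 (14.7-fold) and Pkd2l1 cells (9.62-fold). Kif5a (6.34-fold) in Dlx1 cells and Kif2a (7.06-fold) in brain Top2a cells were the only others called in the 9 comparisons. In Dlx1 cells the 2 motor genes called were out of 19, near the 8.47% of all genes. Of 25 genes of tubulin folding and modification, Vash2 (67.6-fold on 58 and 3 molecules), the tubulin acetyltransferase Atat1 (8.17-fold) and the folding cofactor Tbca (5.76-fold) were higher in Dlx1 than in Slc1a3 cells, and Ttll3 was lower at 0.0773. Tbca was also higher in brain Top2a cells (6.04-fold), and Agbl5 was 8.52-fold higher in tail Igfbp5 than in brain Slc1a3 cells. Ttll3 had 0 molecules in Robo3 cells against 231 CPM in Igfbp5 cells, at least 7.14-fold lower taking 3 molecules for 0 (upper limit of the interval 0.173).

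Of the 16 mitotic spindle genes, 14 of 15 were higher in Dlx1 than in Slc1a3 cells, among them Kif23 (131-fold), Ckap2l (110-fold) and Nusap1 (101-fold). In brain Top2a cells 3 of 4 were higher, Prc1 (189-fold), Tpx2 (156-fold) and Racgap1 (61.7-fold), and in tail Top2a cells 11 of 12, led by Nusap1 (29.6-fold), Kif11 (21.3-fold) and Prc1 (13.2-fold). Without skin-marker cells these were 28.7-, 14.9- and 14.1-fold higher. The Slc1a3 and Igfbp5 kinds excluded cells with Top2a by rule, whereas 197 of the Dlx1 cells held it. The 7 cycling genes were at 5692 CPM in Dlx1 cells with Top2a, 201 CPM without it and 17.8 CPM in Slc1a3 cells. The assignment thus favoured high spindle counts in Dlx1 cells and largely set those of the Top2a kinds, which are therefore no result. The tail neurons held few spindle transcripts. In Pkd2l1 cells Prc1, Tpx2 and Nusap1 had 0 molecules, at least 9.09-, 8.80- and 6.03-fold below Dlx1 cells by the same floor (upper limits of the ratios' intervals 0.136, 0.141 and 0.206). In Robo3 cells Tpx2 had 0, at least 5.13-fold below (upper limit 0.242). Racgap1 was the exception, 9.01-fold higher in Robo3 than in Igfbp5 cells on 22 and 41 molecules. In tail Igfbp5 cells Ckap2l (34.6-fold) and Tpx2 (7.95-fold) were higher than in brain Slc1a3 cells.

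Across the 7 kinds of cells, the members were ranked by how closely log2(CPM + 20) followed that of Tubb3, with no test. Pearson's r was 0.997 for Dcx, 0.987 for Stmn3, 0.979 for Stmn2, 0.955 for Stmn4, 0.954 for Tuba1a and 0.951 for Tubb2b. It was lower for Map1b (0.769), Stmn1 (0.757) and Tubb2a (0.720), of which Map1b was near its Igfbp5-cell level in Robo3 cells, Stmn1 was high in Top2a cells of both libraries and Tubb2a was nearly level between brain Dlx1 and Slc1a3 cells. Of 10911 genes with at least 50 molecules, those outside the list with the highest r were Myt1 (0.997), Smarcc2 (0.997), Elavl3 (0.994), Nrxn3 (0.992) and Smarcd1 (0.991). Myt1 was at 277, 249 and 248 CPM in Pkd2l1, Dlx1 and Robo3 cells and at 0 in tail Top2a cells, and Elavl3 at 1088, 1156 and 1207 CPM in the same neurons and 12.4 CPM in tail Top2a cells. The 7 points share 2 libraries and are few, so that r describes these kinds of cells only.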

How the data were processed

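Sox1-GFP+ cells of 1 tail and 1 brain library were captured with the BD Rhapsody whole-transcriptome kit. Per the file headers, the authors used the BD pipeline 1.10.1 with GRCm38, PhiX and GENCODE vM19. The methods of the study give another, newer release than these headers, which could not be reconciled. Their processing notes also name UMI-tools 1.0.1, STAR 2.7.1a and featureCounts 1.6.4. The deposited values are counts of molecules per cell and gene after correction of identifier errors (RSEC_Adjusted_Molecules), and the counts before it were an alternative. Each captured transcript counts once, so values were not divided by gene length. Whether reads were assigned by strand is not given in the sources used here, and of the genes that overlap Tubb3, Tuba1a, Stmn1 and Map1b in GENCODE all had 0 molecules.

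The cells analysed had over 200 genes but under 4000, and mitochondrial molecules made up less than 40% of theirs. A cell with at least 1 molecule of a marker belonged to that kind, neuronal markers before Top2a and Top2a before the glial marker. Molecules were summed over the cells of a kind and given as CPM. Ratios have conditional exact binomial 95% intervals, and shares exact Clopper-Pearson 95% intervals. Both cover counting error only, since cells of 1 library are not replicates, and no p-value was computed. A gene was called apart with at least 50 molecules over both sides and the whole interval beyond 4-fold. A count of 0 was taken as at most 3. The rules were tested on simulated data.

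The members, markers and lists were chosen with earlier results of these data known. All 10 members were described in every kind. From each list and comparison up to 3 genes past the 4-fold rule in each direction were named, by the bound nearer to 1, as were the 5 genes most like Tubb3. Gap43 in the comparison of both tail neurons, splits by Top2a, skin markers or Slc1a3 and the tail cells with 5 members were looked at after the data had been seen. Alternatives were TMM factors (edgeR 4.0.16), uncorrected molecules, 20% mitochondrial molecules, 2 marker molecules, no marker of another kind, no doublets (Scrublet in scanpy 1.11.5, which marked 5 tail and 76 brain cells, kept in the main values), the mean of per-cell CPM, thinning to 400 molecules and a minimum of 20 molecules. Scripts used numpy 2.4.6, scipy 1.17.1 and pandas 2.3.3.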

Additional observations from a re-analysis of the deposited data

Results flagged for a closer look

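Tubb3, Dcx and Map1b lay on opposite sides of 1 in the brain and the tail when cells with Top2a were set against cells with a glial marker. The difference between the libraries was not tested, since each tissue had 1 library. Tubb3 was 32.2-fold higher in brain Top2a cells than in Slc1a3 cells (21.5 to 48.0), whereas in the tail it had 0 molecules in Top2a cells and 40 in Igfbp5 cells. For Dcx the brain ratio was 24.96 (17.3 to 35.8) and the tail ratio 0.0606 (0.00151 to 0.350). For Map1b the values were 16.0 (10.8 to 23.4) and 0.427 (0.336 to 0.536). Without tail cells that held skin markers, the tail ratios were 0.0896 for Dcx and 0.484 for Map1b, and Tubb3 stayed at 0 molecules against 40. The tail side rests on Igfbp5 cells as reference. In tail cells with Slc1a3 and without neuronal or cycling markers, Tubb3 was at 2.25 CPM on 2 molecules. That is below the upper limit of 9.18 CPM in tail Top2a cells, so Tubb3 could not be called lower against the Slc1a3 cells. Dcx was also lower in the tail Slc1a3 cells than in Igfbp5 cells. No ratio of tail Top2a to tail Slc1a3 cells was computed for Dcx, so it was not called lower against the Slc1a3 cells either. Map1b was at 362 and 207 CPM in brain and tail Top2a cells, but at 22.6 CPM in brain Slc1a3 and 484 CPM in tail Igfbp5 cells.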

How the results depend on the processing

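Of 88 counts of members past the 4-fold rule under the alternatives, 84 were within 1.5 times the reported count. After thinning to 400 molecules the count was 4 in place of 7 for Robo3 over Igfbp5 cells, 0 in place of 1 for Pkd2l1 over Robo3 cells, and 2 in place of 7 for brain Top2a over Slc1a3 cells. Except for Map1b between Pkd2l1 and Robo3 cells, the members lost there had under 50 molecules left. By the mean of per-cell CPM the count for Pkd2l1 over Robo3 cells was 0. Of 781 alternative ratios, 603 stayed within the reported interval, and 0 of those past the 4-fold rule crossed 1. Under TMM scaling, ratios against brain Slc1a3 cells moved by -0.56 to -0.84 on the log2 scale and the others by -0.42 to 0.16. The molecules before identifier correction left all 89 ratios within their intervals.

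No paired analysis was possible because each tissue had 1 library. Depth limits the rare members, since Stmn4 and Stmn3 had 15 and 29 molecules in Robo3 cells. Kinds that rest on a single marker molecule can miss cells. Brain cells with none of the markers were shallower, with a median of 541 molecules against 696 over all brain cells. In the tail they were not, at 1354 against 1282.5.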
